A study of Mus musculus with 8 samples.

Results

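Among the 55401 rows of the count table of cultured hepatic macrophages, 6 genes of the Fc receptor system were chosen by symbol: the activating Fcγ receptors *Fcgr1*, *Fcgr3* and *Fcgr4*, the inhibitory Fcγ receptor *Fcgr2b*, the signalling adaptor *Fcer1g* and the neonatal Fc receptor *Fcgrt*. All 6 passed the filter on low counts, and the lowest value of any of them in any library was 16.8 CPM (CPM, counts relative to the library total, scaled by the TMM method), for *Fcgrt*. Fcγ receptors bind the constant part of IgG on immune complexes and coated particles. The activating receptors associate with the FcRγ chain encoded by *Fcer1g*, whose immunoreceptor tyrosine-based activation motif (ITAM) recruits Syk and drives phagocytosis, whereas FcγRIIB carries an inhibitory motif (ITIM) that recruits the phosphatase SHIP-1. FcRn, encoded by *Fcgrt*, pairs with β2-microglobulin and returns IgG and albumin from endosomes to the surface. In the liver, Fcγ receptors are known from Kupffer cells, and FcγRIIB and FcRn also from sinusoidal endothelium.

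Macrophages had been isolated by magnetic separation with an F4/80 antibody from livers of WT mice on a standard diet (normal) or of MC4R-KO mice on a Western diet of 6 to 10 wk (steatotic), all on C57BL/6J, and were plated on collagen. They received vehicle (Veh) or cholesterol crystals (CC, 500 μg/ml) for 24 h, with 2 libraries in each of the 4 groups. The design asks whether the liver state changes the levels and the response to the crystals. Genotype and diet changed together and cannot be told apart, and *Mc4r* was disrupted in the whole animal. The labels do not say whether libraries came from separate animals or cultures, so the p-values measure only the spread between these libraries, which may be technical. With 2 libraries in each group, a lack of overlap is common even without a difference, and was not counted over all tested genes.

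Total counts ranged from 58668655 to 74529462 per library. *Mc4r*, the disrupted gene, had 0 counts in the 4 libraries labelled normal and 28, 22, 53 and 72 counts in those labelled steatotic. The latter counts equal 0.299 to 0.966 CPM without TMM, a low level around the 0.5 CPM filter on low counts. These counts run opposite to the genotype labels if the knockout allele yields no transcript, and every direction between livers below rests on the labels. The macrophage markers *Adgre1* (group means 818 to 1747 CPM) and *Csf1r* (group means 1150 to 1670 CPM) were high in every group, as were *Cd68* (2090 to 3623 CPM) and *Lyz2* (3535 to 7873 CPM). The 7 monocyte markers summed to 8.31 to 12.0 CPM with the label normal and to 124 to 146 CPM with the label steatotic, and the 9 T or NK cell markers to 0.717 to 1.27 CPM and 14.7 to 19.1 CPM. In bulk RNA, fewer cells of a type and less RNA per cell cannot be told apart.

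The sequences that separate the activating from the inhibitory side are those that code for the signalling motifs. The predicted proteins of the 6 genes were searched for an ITAM (Y, any 2 residues, L or I, repeated after 6 to 8 residues) and an ITIM (I or V, any residue, Y, any 2 residues, L). In 1 coding transcript per gene, the ITAM was found in *Fcer1g* and the ITIM in *Fcgr2b*, and neither in the other 4. Both stretches were read from GENCODE release M21 on GRCm38 (mm10). The *Fcer1g* stretch lies at chr1:171229889-171230072 on the minus strand, in 2 coding exons, and codes for residues 65 to 79 of 86. The *Fcgr2b* stretch lies at chr1:170961062-170961097 on the minus strand, in 1 coding exon, and codes for residues 314 to 325 of 340. Capitals mark the codons of the tyrosine motifs.
Fcer1g ITAM: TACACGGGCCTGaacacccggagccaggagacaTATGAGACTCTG
Fcgr2b ITIM: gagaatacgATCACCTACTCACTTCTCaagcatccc

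The promoters of the 3 activating receptors are shown because the 100 bases before their RefSeq start (build GRCm38.p6) hold the same short motif, GAGGAA. It is 1 form of the site bound by the myeloid factor PU.1. The motif was chosen after the sequences were seen, and both strands were searched. Capitals mark its match, which lies on the other strand and reads TTCCTC, at 55 bases before the start in *Fcgr1*, 6 in *Fcgr3* (15 before its other RefSeq start) and 22 in *Fcgr4*. The same window of *Fcgr2b*, *Fcer1g* and *Fcgrt* held no match, but each holds the shorter GGAA, so this split rests on the motif chosen. Of 32851 RefSeq promoters of this length, 9.82% held 1 or more matches to GAGGAA. A match is a description of the letters and not evidence of binding. The windows are *Fcgr1* at chr3:96293970-96294069 on the minus strand, *Fcgr3* at chr1:171059404-171059503 on the minus strand and *Fcgr4* at chr1:171018826-171018925 on the plus strand.
Fcgr1 promoter: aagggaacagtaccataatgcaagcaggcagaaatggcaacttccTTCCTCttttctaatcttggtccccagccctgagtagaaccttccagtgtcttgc
Fcgr3 promoter: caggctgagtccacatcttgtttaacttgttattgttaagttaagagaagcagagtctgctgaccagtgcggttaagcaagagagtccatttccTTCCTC
Fcgr4 promoter: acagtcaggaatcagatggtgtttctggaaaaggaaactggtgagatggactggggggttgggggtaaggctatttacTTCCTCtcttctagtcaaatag

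Levels of different genes were compared per length, as CPM per kb of all exons of a gene. The median over the 8 libraries was lowest for *Fcgr2b* (8.25 CPM per kb, range 4.11 to 16.3) and next for *Fcgrt* (17.6, range 8.01 to 24.0). It was 147 for *Fcgr3* (85.3 to 221), 186 for *Fcgr4* (96.6 to 477), 410 for *Fcgr1* (234 to 672) and 1012 for *Fcer1g* (861 to 1477). The ranges of neighbours in this order overlapped, except those of *Fcgrt* and *Fcgr3* and those of *Fcgr1* and *Fcer1g*. Compared library by library, *Fcgr1* also lay above *Fcgr4* in all 8. *Fcgr3* and *Fcgr4* could not be ordered across the groups, since in normal macrophages with Veh they stood at 148 ± 30.0 and 149 ± 0.218 CPM per kb (SD, n = 2), and in steatotic macrophages with Veh at 221 ± 0.700 and 462 ± 20.6. The exons of *Fcgr2b* (5790 bases) include transcripts with long non-coding parts. With the longest coding transcript (3544 bases), its group means were 7.06 to 23.5 CPM per kb, and those of *Fcgrt* 10.6 to 25.5. With either length *Fcgrt* was below *Fcgr2b* with the label steatotic and CC (8.96 against 11.8 CPM per kb of all exons, 10.6 against 19.2 of the longest coding transcript). No window of 150 bases, the read length, in any transcript of the 6 genes also occurred in a transcript of another gene, and the longest stretch that *Fcgr2b* and *Fcgr3* share is 129 bases. The antisense transcript *Gm38204*, which overlaps *Fcgr2b*, had at most 2 counts in any library.

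**Figure D1:**
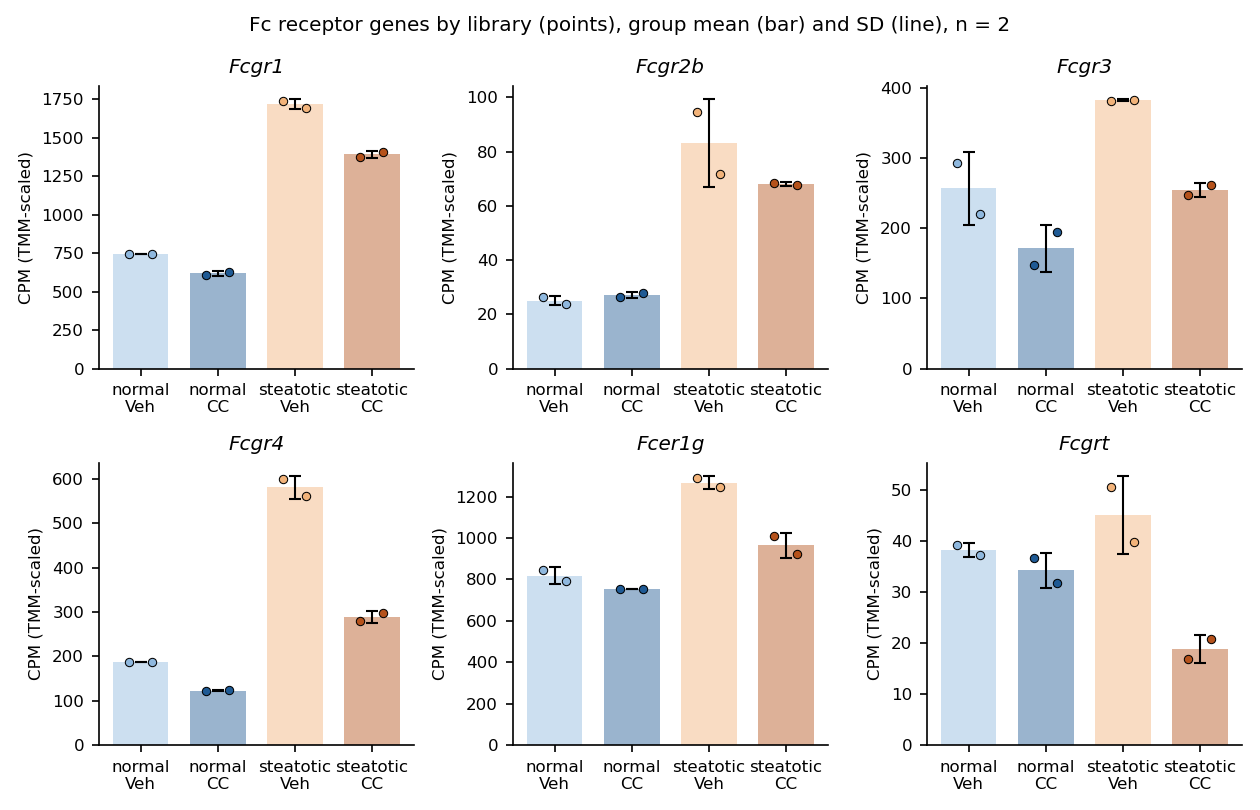
Levels of the 6 Fc receptor genes in CPM (vertical axes, each from 0), with 1 point per library, bars for group means and lines for the SD (n = 2). The steatotic libraries lie above the normal ones with the same treatment for every gene but *Fcgrt*, which in the 2 steatotic libraries with CC is below the others, at 16.8 and 20.8 CPM.

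At vehicle, macrophages labelled steatotic had higher RNA levels of 4 of the 6 genes: the activating receptors *Fcgr1* and *Fcgr4*, the inhibitory receptor *Fcgr2b* and the adaptor *Fcer1g*. The ratio was 3.32-fold for *Fcgr2b*, 3.10-fold for *Fcgr4*, 2.30-fold for *Fcgr1* and 1.55-fold for *Fcer1g*. The intervals of *Fcgr2b* and *Fcgr4*, given below, overlap, so they are not ordered. *Fcgr3* and *Fcgrt* did not pass the test. Of all tested genes, 16.4% were called higher and 14.3% lower in this comparison, and all 6 log2 fold changes of the Fc receptor genes were above 0.

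*Fcgr1* encodes the high-affinity receptor FcγRI. It stood at 747 and 746 CPM in the normal libraries with Veh and at 1740 and 1695 CPM in the steatotic ones. The groups were far apart, and the log2 fold change was 1.20 (95% interval 1.12 to 1.28, edgeR adjusted p = 6.62e-07). *Fcgr4*, the mouse receptor for IgG2a and IgG2b, was at 187 and 188 CPM against 599 and 562 CPM. The groups did not overlap, and the log2 fold change was 1.63 (1.52 to 1.74, edgeR adjusted p = 8.10e-07). *Fcgr3*, a low-affinity activating receptor also found on NK cells, was at 294 and 221 CPM against 382 and 384 CPM. Its groups did not overlap either, but its normal replicates differed more than those of any other activating receptor, and the log2 fold change of 0.57 (0.11 to 1.04) had an edgeR adjusted p of 0.0709. The DESeq2 test gave the same size (0.58) and an adjusted p of 0.000379, so the call for *Fcgr3* depends on the tool.

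*Fcgr2b*, the only inhibitory receptor of the 6, was at 26.3 and 23.8 CPM in the normal libraries with Veh and at 94.6 and 71.8 CPM in the steatotic ones. The lower steatotic value was still above both normal values, and the log2 fold change was 1.73 (1.43 to 2.03, edgeR adjusted p = 8.09e-05). *Fcer1g*, the shared adaptor, was at 847 and 791 CPM against 1291 and 1245 CPM, without overlap. Its log2 fold change was 0.63 (0.51 to 0.75, edgeR adjusted p = 8.46e-05), a smaller ratio than those of *Fcgr1* and *Fcgr4*, whose intervals lie above it. *Fcgrt*, the recycling receptor, was at 39.2 and 37.2 CPM against 50.5 and 39.7 CPM. The lower steatotic value was close to the higher normal one, and the log2 fold change of 0.24 (-0.11 to 0.59) did not pass the test (edgeR adjusted p = 0.267).

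With CC the same 4 genes were higher with the label steatotic, and *Fcgrt* was lower. All tested genes were called higher in 15.9% and lower in 12.9% of cases. *Fcgr1* was at 606 and 630 CPM in the normal and 1378 and 1409 CPM in the steatotic libraries (log2 fold change 1.17, edgeR adjusted p = 8.67e-07). *Fcgr4* was at 121 and 124 CPM against 279 and 298 CPM (1.24, edgeR adjusted p = 2.36e-06). The groups of both genes were far apart. *Fcgr2b* was at 26.3 and 27.8 CPM against 68.6 and 67.7 CPM (1.33, edgeR adjusted p = 0.000323), and *Fcer1g* at 753 and 753 CPM against 1008 and 922 CPM (0.36, edgeR adjusted p = 0.00177). Neither gene overlapped between the labels. *Fcgr3* was at 148 and 195 CPM against 247 and 262 CPM, again without overlap and again past the threshold with DESeq2 (adjusted p = 0.000559) but not with edgeR (log2 fold change 0.57, adjusted p = 0.0760). *Fcgrt* was at 36.6 and 31.9 CPM against 16.8 and 20.8 CPM, without overlap, a log2 fold change of -0.86 (-1.21 to -0.51, edgeR adjusted p = 0.00497).

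Markers of other cells moved with these differences. Monocyte and T or NK cell markers were higher with the label steatotic, as given above, and among the latter *Ncr1*, found on NK cells, had a mean of 0.127 CPM in normal and 1.68 CPM in steatotic libraries with Veh. The 11 markers of sinusoidal endothelium summed to 166 to 175 CPM in normal and 355 to 368 CPM in steatotic libraries with Veh, with large differences in *Pecam1* (25.5 and 95.9 CPM) and *Dnase1l3* (5.49 and 90.8 CPM), whereas *Stab2* was at 25.0 and 19.9 CPM and *Clec4g* at 0.0276 and 0.0821 CPM. Hepatocyte markers went the other way, with 7 of 11 tested lower with the label steatotic at Veh (median log2 fold change -3.83) and 9 of 11 with CC (median -3.97), and *Alb*, which encodes albumin, was at means of 47.6 and 1.59 CPM with Veh. *Dcn*, a stellate cell marker that encodes decorin, was higher (2.05 and 19.2 CPM with Veh). Of the 8 neutrophil markers, *Ly6g* was at 3 counts or fewer in every library and the sum (74.3 to 162 CPM) came mostly from *Csf3r*. Of the 6 macrophage markers, 3 were higher with the label steatotic at Veh and 2 lower, namely *Lyz2* (7873 and 3535 CPM) and *Cd68* (3503 and 2090 CPM). The Kupffer cell markers summed to 3012 to 3065 CPM in normal and 4519 to 4561 CPM in steatotic libraries with Veh, with 4 of 7 called higher and 2 lower. *Cd5l* was the largest part of the sum (1887 and 3165 CPM), and the 2 lower were *Marco* (357 and 93.5 CPM) and *Clec4f* (132 and 92.9 CPM). Of the IgG heavy chain genes, *Ighg1* and *Ighg2c* were at 3 counts or fewer in every library, whereas *Ighg2b* and *Ighg3* were above that in at least 1. The 12 B or plasma cell markers summed to 4.36 to 7.73 CPM over all libraries. For comparison with the markers called, 16.4% of all tested genes were called higher and 14.3% lower at Veh, and 15.9% and 12.9% with CC. The part of these markers in the differences of the Fc receptor genes was not tested.

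**Figure D2:**
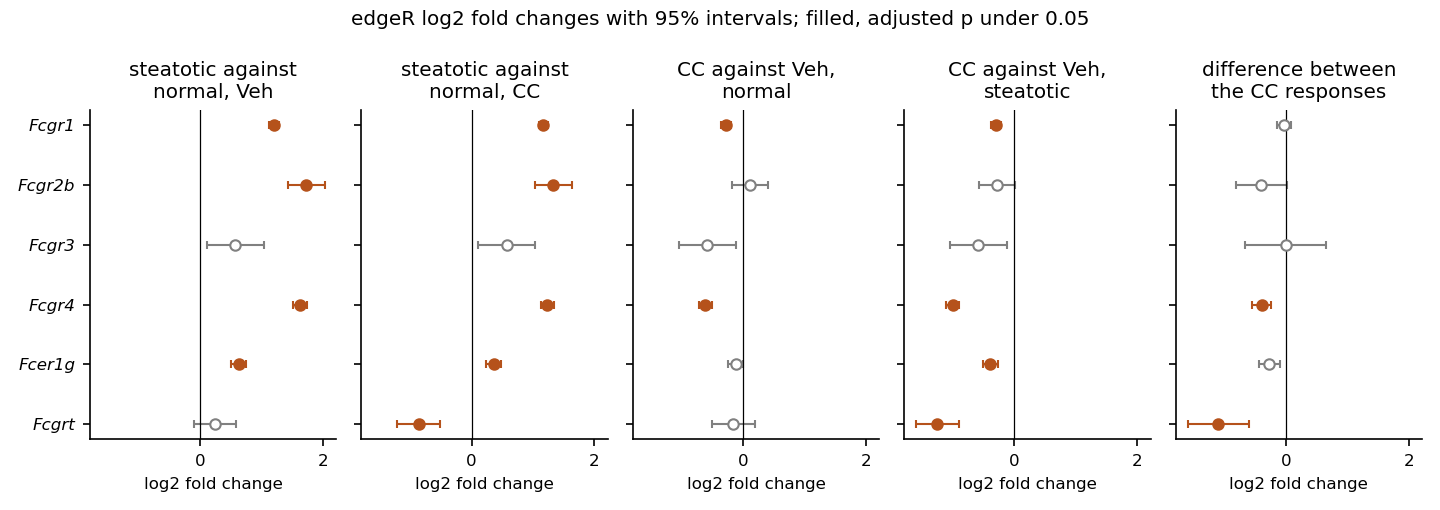
Log2 fold changes (horizontal axes) of the 6 genes in the 5 comparisons, with 95% intervals from edgeR; filled points have an adjusted p under 0.05. *Fcgr1*, *Fcgr2b*, *Fcgr4* and *Fcer1g* lie to the right of 0 in both comparisons of the livers, *Fcgr4* to the left of 0 in both responses to CC, and *Fcgrt* at -1.26 in the steatotic response against -0.16 in the normal one.

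The response to CC compares libraries that were also used above, so it is not independent of the liver comparisons. With CC, *Fcgr4* and *Fcgr1* fell in macrophages of both labels, and *Fcer1g* and *Fcgrt* in those labelled steatotic. In neither response was a gene of the 6 called higher by edgeR, nor at an unadjusted p under 0.05 or by DESeq2 (0 in each). In normal macrophages, 2 of 6 genes were called lower, where 5.54% of all tested genes were called lower and 6.27% higher (842 and 953 genes, but 1110 and 809 without TMM). In steatotic macrophages, 4 of 6 were called lower, where the shares of all tested genes were 10.9% and 12.0%.

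*Fcgr4* fell by 0.61 on the log2 scale in normal macrophages (from 187 and 188 to 121 and 124 CPM, edgeR adjusted p = 0.000242) and by 1.01 in steatotic ones (from 599 and 562 to 279 and 298 CPM, edgeR adjusted p = 8.06e-06). No library with CC reached a library with Veh of the same label. With CC, the steatotic libraries were still above the normal ones with Veh. *Fcgr1* fell by 0.27 in normal macrophages (edgeR adjusted p = 0.00200) and by 0.30 in steatotic ones (edgeR adjusted p = 0.000546), with no overlap and with less change than *Fcgr4* in each. *Fcgr3* had a log2 fold change of -0.58 (-1.05 to -0.12) in normal and -0.59 (-1.05 to -0.12) in steatotic macrophages. Its groups did not overlap, the edgeR adjusted p-values were 0.122 and 0.0821, and those of DESeq2 were 0.000817 and 0.000345.

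The inhibitory receptor did not pass the test in either response. For *Fcgr2b* the log2 fold change was 0.11 (-0.19 to 0.41, edgeR adjusted p = 0.660) in normal macrophages, where the lower value with CC (26.3 CPM) equalled the higher one with Veh to 3 digits. In steatotic macrophages it was -0.29 (-0.58 to 0.01, edgeR adjusted p = 0.157), with both values with CC below both with Veh. Without the second steatotic Veh library, which was the lower of that pair, the change was -0.47 (edgeR adjusted p = 0.0114). *Fcer1g* did not pass in normal macrophages (log2 fold change -0.12, edgeR adjusted p = 0.197) and fell by 0.39 in steatotic ones (-0.51 to -0.27, edgeR adjusted p = 0.00125). *Fcgrt* was at 36.6 and 31.9 CPM with CC in normal macrophages, below both values with Veh (log2 fold change -0.16, edgeR adjusted p = 0.575). In steatotic macrophages it fell from 50.5 and 39.7 to 16.8 and 20.8 CPM, by 1.26 (-1.61 to -0.91, edgeR adjusted p = 0.000996).

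Markers moved with CC as well. The 6 macrophage markers summed to 14136 to 14545 CPM with Veh and 11586 to 11736 CPM with CC in normal macrophages, and to 9403 to 9606 and 8389 to 9162 CPM in steatotic ones. Of these 6, 5 were called lower in normal macrophages (median -0.45), and 4 lower and 1 higher in steatotic ones (median -0.51), where *Adgre1* fell from 1747 to 1106 CPM and *Csf1r* from 1670 to 1181 CPM while *Cd68* rose from 2090 to 2350 CPM. The Kupffer cell markers summed to 2419 to 2629 CPM with CC in normal and 3018 to 3545 CPM in steatotic macrophages, with 3 of 7 lower in normal and 5 lower and 1 higher in steatotic ones. Shares of all tested genes called lower and higher were 5.54% and 6.27% in normal macrophages and 10.9% and 12.0% in steatotic ones. Of the 6 stellate cell markers *Dcn* alone was tested, and it rose from 2.05 to 6.35 CPM in normal and from 19.2 to 124 CPM in steatotic macrophages, where *Col1a1* was at 0.196 CPM with Veh and 0.0311 CPM with CC, *Col1a2* at 0.315 and 0.164 CPM, and *Des* and *Lrat* at 0. The 12 hepatocyte markers summed to 107 to 121 CPM with Veh and 49.8 to 56.7 CPM with CC in steatotic macrophages, nearly all of it *Trf*, which encodes transferrin (111 to 50.3 CPM) and was the 1 gene called of 11 tested, while *Alb* was at 1.59 and 2.12 CPM. The sinusoidal endothelium markers summed to 355 to 368 CPM with Veh and 293 to 304 CPM with CC in steatotic macrophages, where *Pecam1* fell from 95.9 to 38.8 CPM and *Dnase1l3* from 90.8 to 41.5 CPM, whereas *Kdr* rose from 34.2 to 50.7 CPM and *Oit3* from 8.76 to 14.8 CPM. In normal macrophages, the sinusoidal endothelium markers rose, from 166 to 175 CPM with Veh to 200 to 204 CPM with CC. The hepatocyte markers there summed to 153 to 160 CPM with Veh and 122 to 137 CPM with CC. The part of the markers in the fall of the Fc receptor genes was not tested.

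The responses of the 2 labels were compared by an interaction term. *Fcgr4* fell more in steatotic than in normal macrophages, with a difference of -0.40 on the log2 scale (-0.55 to -0.24, edgeR adjusted p = 0.0226). *Fcgrt* differed by -1.10 (-1.59 to -0.61, edgeR adjusted p = 0.0406). These were 2 of 6 genes, against 1.27% of all tested genes called lower and 1.95% higher. Both calls were lost when any of 6 libraries was left out, namely either normal Veh library, either normal CC library, the first steatotic Veh library or the first steatotic CC library. The difference then ranged from -0.41 to -0.35 for *Fcgr4* (edgeR adjusted p 0.0523 to 0.0810) and from -1.20 to -0.93 for *Fcgrt* (edgeR adjusted p 0.0698 to 0.137), with the same direction. *Fcer1g* (-0.27, interval -0.44 to -0.10, edgeR adjusted p = 0.114) and *Fcgr2b* (-0.40, interval -0.82 to 0.02, edgeR adjusted p = 0.373) did not pass. The difference was -0.03 for *Fcgr1* (-0.14 to 0.08, edgeR adjusted p = 0.855) and lay between -0.66 and 0.65 for *Fcgr3*, whose spread left the widest interval of the 6.

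The balance of activating and inhibitory receptors was described as the log2 ratio of the summed level of *Fcgr1*, *Fcgr3* and *Fcgr4* to that of *Fcgr2b*, in CPM per kb, with no test. The sum was above *Fcgr2b* in every library. The log2 ratio was 7.06 and 7.10 in normal macrophages with Veh and 6.52 and 6.56 with CC. In steatotic macrophages it was 6.39 and 6.74 with Veh and 6.24 and 6.32 with CC. Normal macrophages with Veh were thus the highest pair and steatotic macrophages with CC the lowest, and the pairs in between overlapped. The group means differed by -0.52 between the livers at Veh and by -0.54 with CC in normal macrophages, where the pooled SD between replicates was 0.128. The first value was -0.34 without the first and -0.69 without the second steatotic Veh library. With CC the livers differed by -0.26, and the response in steatotic macrophages was -0.28, a value that the 2 steatotic Veh libraries decided: it was -0.46 without the first and -0.11 without the second.

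Each activating receptor had its own ratio to *Fcgr2b*. That of *Fcgr4* had a mean log2 ratio of 5.11 ± 0.103 in normal and 5.02 ± 0.217 in steatotic macrophages with Veh (SD, n = 2), a difference smaller than either SD, and stood at 4.39 ± 0.0363 and 4.29 ± 0.0805 with CC. That of *Fcgr3* was 5.09 ± 0.192 in normal and 3.95 ± 0.286 in steatotic macrophages with Veh, and that of *Fcgr1* 6.06 ± 0.0994 and 5.54 ± 0.254. With CC in steatotic macrophages, the ratio of *Fcgr3* was 3.64 ± 0.0729 and that of *Fcgr1* 5.52 ± 0.0360. Between the livers at Veh the mean ratio of *Fcgr3* differed the most of the 3, and with CC in steatotic macrophages that of *Fcgr4*.

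The makeup of the activating sum also differed. *Fcgr4* made up 24.6% and 26.5% of it in normal macrophages with Veh and 34.8% and 33.8% in steatotic ones. With CC its share was 23.2% and 21.7% in normal and 24.8% and 25.5% in steatotic macrophages. The steatotic libraries with Veh were the highest pair. *Fcgr1* made up 47.5% to 59.3% in all libraries and *Fcgr3* 15.9% to 27.9%. The level of the adaptor per activating receptor, *Fcer1g* over the sum, was 1.60 and 1.60 in normal macrophages with Veh, 2.07 and 1.89 with CC, 1.08 and 1.08 in steatotic macrophages with Veh and 1.29 and 1.13 with CC. It was lower in every steatotic library than in every normal one, and the pairs with CC were above those with Veh of the same label.

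**Figure D3:**
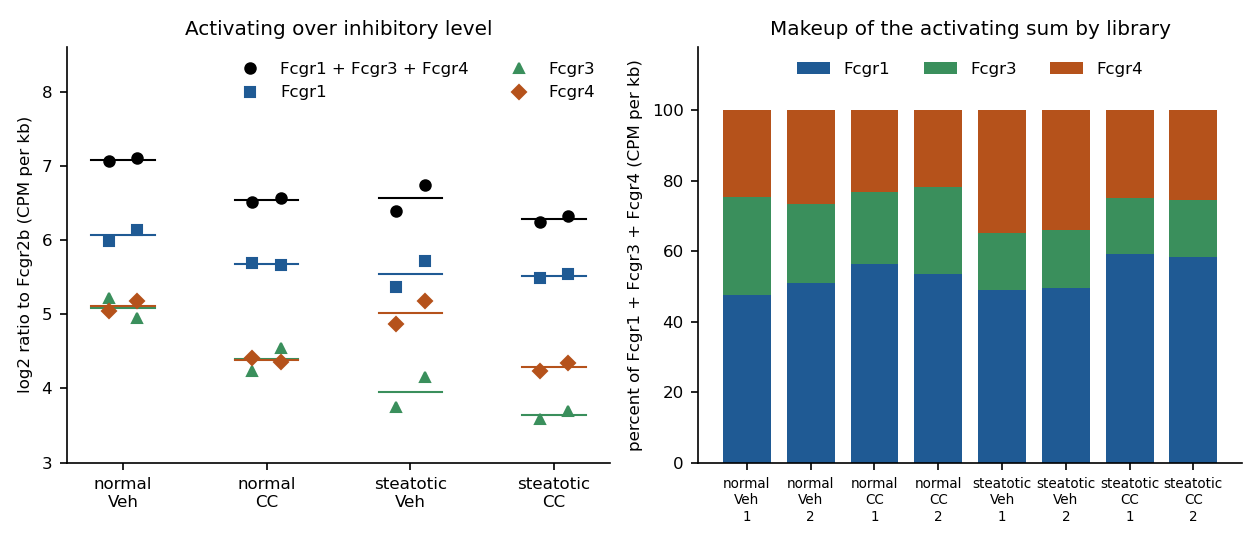
Left, log2 ratio of the activating receptors, summed or alone, to *Fcgr2b* in CPM per kb, with 2 points per group for the libraries and a line for their mean. Right, percent of the activating sum contributed by each receptor in each library; *Fcgr4* reaches 34.8% and 33.8% in the steatotic libraries with Veh and is at 26.5% or less in the others.

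The pathway around the receptors was described with lists of genes, by counts and medians beside those of all tested genes, whose median log2 fold change was within 0.01 of 0 in every comparison. Calls are those of edgeR at an adjusted p under 0.05 over all tested genes, and values for CC are given for normal and then steatotic macrophages. Of 22 genes that signal below activating Fc receptors, 17 were higher with the label steatotic at Veh and the other 5 did not pass (median 0.30), and 3 were higher and 14 lower with CC in steatotic macrophages (median -0.22). Of all tested genes, 16.4% were called higher in the first of these comparisons, and 12.0% higher and 10.9% lower in the second. In normal macrophages, 1 was higher and 5 lower with CC (median -0.05), where 6.27% and 5.54% of all tested genes were called. With CC, 12 were higher and 2 lower in steatotic than in normal macrophages, where 15.9% and 12.9% of all tested genes were called. In the difference between the responses 5 were lower and the other 17 did not pass, where 1.27% of all tested genes were called lower and 1.95% higher.

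Among these genes, *Syk*, the kinase that docks on the ITAM, was at a mean of 687 CPM in normal and 687 CPM in steatotic macrophages with Veh (log2 fold change 0.0017, -0.08 to 0.08) and rose with CC by 0.34 and 0.42. *Lat2*, a membrane adaptor of myeloid cells, rose the most with the label steatotic, from 3.55 to 26.9 CPM (2.92), and went on to 66.0 CPM with CC (1.30). *Rac2* (0.78), a GTPase of phagocytes, *Pik3cd* (0.75), a PI3-kinase subunit, and *Dock2* (0.63), an activator of Rac, were also higher at Veh. With CC in normal macrophages *Ncf1*, a subunit of the phagocyte NADPH oxidase, fell by 0.74, *Fgr*, a Src family kinase, by 0.29 and *Plcg2*, a phospholipase, by 0.22. In steatotic ones *Pik3cd* fell by 0.64, *Ncf1* by 0.57 and *Pik3ap1*, an adaptor for PI3-kinase, by 0.50. The differences between responses that passed were those of *Pik3cd* (-0.59), *Pik3ap1* (-0.50), *Rac2* (-0.41), *Btk* (-0.38) and *Lyn* (-0.25).

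Of 14 genes that inhibit Fc receptor signalling, 6 were higher with the label steatotic at Veh and the other 8 did not pass (median 0.31), and 2 were higher and 4 lower with CC in steatotic macrophages (median -0.09). With CC in normal macrophages, 1 was higher and 3 lower (median -0.05). Of all tested genes, 16.4% were higher and 14.3% lower at Veh, 12.0% and 10.9% with CC in steatotic macrophages and 6.27% and 5.54% in normal ones, and these shares also stand beside the counts of the lists that follow. *Dok3*, an adaptor, had the largest change at Veh among those called (35.6 to 62.1 CPM, log2 fold change 0.80). *Inpp5d*, which encodes the phosphatase SHIP-1 that docks on the ITIM of FcγRIIB, had means of 268 CPM in normal and 394 CPM in steatotic macrophages with Veh (log2 fold change 0.56) and fell with CC by 0.26 and 0.58. *Ptpn6*, which encodes the phosphatase SHP-1, was 0.44 higher with the label steatotic and fell with CC by 0.64 and 0.56. *Csk*, which restrains Src kinases, was 0.47 higher at Veh and fell with CC by 0.43 and 0.61, whereas the ubiquitin ligase gene *Cblb* rose by 0.36 and 0.42.

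A list of other receptors and adaptors, most of them tied to ITAM signalling, split in both directions. At Veh, 10 of 19 tested genes were higher and 4 lower with the label steatotic (median 0.30). *Tyrobp*, which encodes the adaptor DAP12, rose by 0.36 (694 to 890 CPM) and fell with CC by 0.35 and 0.38. The highest ratios were those of the SIRPβ genes *Sirpb1a* (4.45), *Sirpb1b* (3.43) and *Sirpb1c* (3.39), near-identical copies whose counts may be divided uncertainly, and the lectin receptor *Clec7a* (Dectin-1), which carries an ITAM-like motif in its own tail, was lower (-1.05). With CC, *Clec4e*, which encodes Mincle, a lectin receptor that also signals through FcRγ, rose from 38.3 to 79.2 CPM in normal and from 25.1 to 177 CPM in steatotic macrophages (1.05 and 2.82), and the difference between the responses was 1.78. *Clec4d* rose by 0.34 and 0.77 (difference 0.43). *Trem3* and *Trem1* rose by 1.23 and 1.11 in steatotic macrophages, at means of 4.71 CPM or less. The SIRPβ genes fell with CC under both labels: *Sirpb1a* by 1.95 (10.5 to 2.73 CPM) and 1.12 (230 to 106 CPM, difference 0.83), *Sirpb1b* by 1.14 and 0.70 and *Sirpb1c* by 0.69 and 0.65. In all, 8 of 19 were higher and 5 lower with CC in steatotic macrophages, and 6 and 5 in normal ones (medians 0.08 and 0.12).

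Other inhibitory receptors with ITIMs also went both ways. Of 20 tested, 10 were higher and 4 lower with the label steatotic at Veh (median 0.44, against 16.4% and 14.3% of all tested genes), with *Clec4a2* (2.04), *Pecam1* (1.91), *Cd72* (1.63) and *Clec4a3* (1.55) at the top and *Cd33* (-1.36) at the other end. *Pecam1* was also among the endothelial markers. With CC in steatotic macrophages, 4 were higher and 7 lower (median -0.05, against 12.0% and 10.9%): *Cd72* fell by 1.98, *Pecam1* by 1.30 and *Clec4a3* by 1.04, while *Cd33* rose by 1.05 and *Lilrb4a* by 0.91. In normal macrophages 2 were higher and 7 lower (median -0.08, against 6.27% and 5.54%), with falls of 0.89 for *Clec4a3*, 0.86 for *Cd72* and 0.55 for *Clec4a1* and a rise of 0.53 for *Lilrb4a*. The difference between the responses passed for *Pecam1* (-1.20), *Cd72* (-1.11), *Cd33* (0.96) and *Lilrb4a* (0.38).

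Of the other receptors for immunoglobulin, 9 of 15 passed the filter. The subunits of the mast cell IgE receptor, *Fcer1a* and *Ms4a2*, were at 3 counts or fewer in every library. *B2m*, the partner of FcRn, was 0.24 higher with the label steatotic at Veh (8043 to 9473 CPM) and did not pass with CC (-0.03 and -0.05). *Trim21*, which encodes a cytosolic receptor for IgG, was 0.40 higher with the label steatotic. *Cd5l*, a secreted protein that binds IgM and is also among the Kupffer cell markers, rose by 0.75 from 1887 to 3165 CPM and fell by 0.31 with CC in steatotic macrophages. At Veh, 4 were higher and 3 lower, among them 3 genes of low level: *Pigr*, the polymeric immunoglobulin receptor, at means of 0.681 CPM in normal macrophages and 0 in steatotic ones, *Fcmr*, the receptor for IgM, at 0.489 and 0.0274 CPM, and *Fcrl5* at 0.0811 and 1.24 CPM. In this list *Cd5l* was the 1 gene called with CC in steatotic macrophages.

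Regulators known to act on Fc receptor genes were described last. At Veh, 5 of 14 were higher and 1 lower with the label steatotic (median 0.29), and with CC in steatotic macrophages 1 was higher and 5 lower (median -0.23). *Spi1*, which encodes PU.1, was 0.37 higher and fell by 0.20 with CC in steatotic macrophages. *Il4ra*, the receptor for interleukin 4, was 1.34 higher (158 to 400 CPM) and fell by 0.52 (difference between the responses -0.63). *Cebpa*, a myeloid transcription factor, was the 1 lower gene (149 to 86.2 CPM, -0.79), and *Cebpb*, of the same family, was the 1 that rose with CC in steatotic macrophages (64.9 to 107 CPM, 0.72). *Tgfbr2* fell with CC by 0.43 in normal and 0.83 in steatotic macrophages (difference -0.41), *Ifngr1* by 0.47 and 0.48, and *C5ar1*, the receptor for C5a, by 0.46 and 0.51. In normal macrophages these 3 genes were the ones called, all lower (median -0.09).

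**Figure D4:**
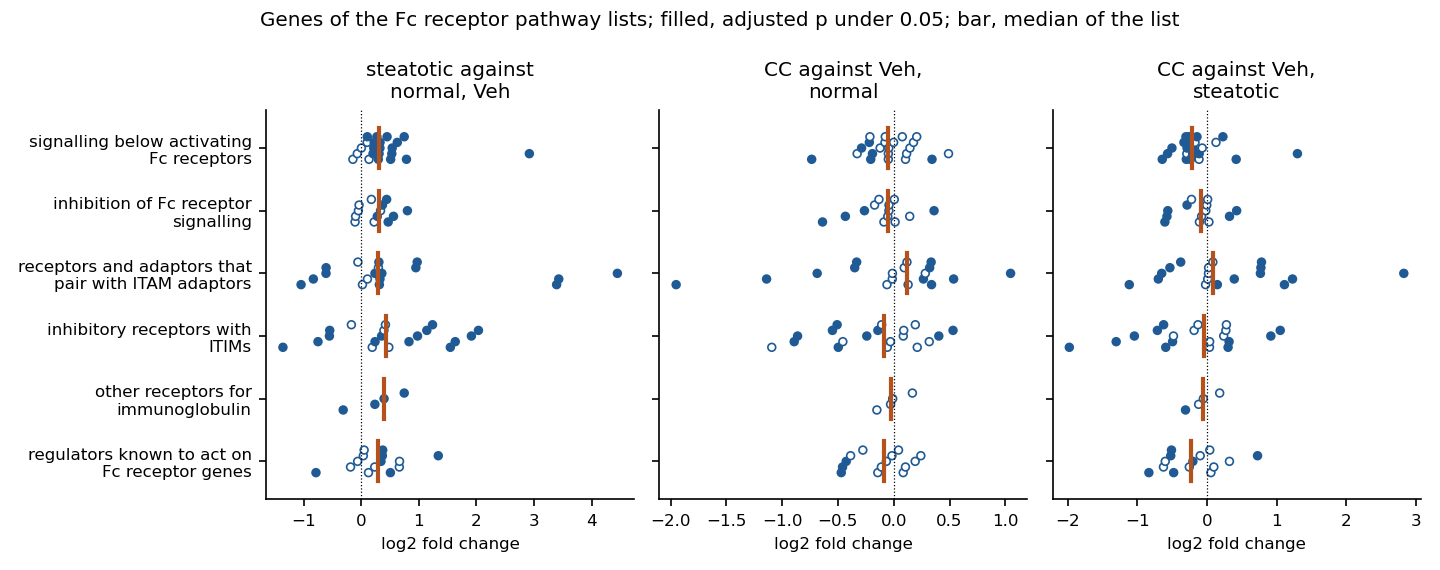
Log2 fold changes (horizontal axes) of 90 tested genes of the 6 lists at Veh and with CC, filled where the adjusted p is under 0.05; bars mark the median of each list and the dotted line that of all tested genes. Left out are 8 genes with a group mean under 0.5 CPM; the signalling list has its median at 0.30 in the liver comparison and at -0.22 with CC in steatotic macrophages.

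Across the 8 libraries, the members were compared by the Pearson correlation of their log2 CPM, as a description of points that share 4 groups. *Fcgr4* and *Fcer1g* were the most alike pair (r = 0.979), followed by *Fcgr1* with *Fcgr2b* (r = 0.969) and with *Fcgr4* (r = 0.956). *Fcgrt* had r between -0.189 and 0.260 with the other 5. Among 5346 genes with a mean above 5 on the log2 CPM scale, those most like *Fcgr4* were *Maf*, a macrophage transcription factor (r = 0.998, group means of 352 and 251 CPM in normal and 771 and 462 CPM in steatotic macrophages with Veh and CC), *9930111J21Rik2* (r = 0.998) and *Pltp*, which encodes the phospholipid transfer protein (r = 0.998). The closest were *Sipa1l1*, *Sp100* and *Rin2* to *Fcgr1*, *Ifi44*, *Rap1b* and *Carhsp1* to *Fcgr2b*, and *Fyn* and *Plbd2*, beside the retrogene *Tpm3-rs7*, to *Fcer1g* (r from 0.990 to 0.999). For *Fcgrt* they were *Setdb1* (r = 0.967), *Cd2ap* (0.963) and *Kat2a* (0.961). *Fcgr3* was closest to *Gm10240*, to the ribosomal protein pseudogene *Rpl21-ps15* and to *Marchf5* (r from 0.986 to 0.993).

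Of the 6 genes, 4 lie within 1 stretch of chromosome 1 (GRCm38), from *Fcgr2b* at 170958617 to 170976547 (minus strand) over *Fcgr4* at 171018920 to 171029761 (plus strand) and *Fcgr3* at 171051174 to 171064935 (minus strand) to *Fcer1g* at 171229572 to 171234365 (minus strand). *Fcgr1* lies on chromosome 3 at 96282909 to 96293969 and *Fcgrt* on chromosome 7 at 45092990 to 45103851, both on the minus strand. The stretch holds 17 annotated genes, of which 5 tested genes are not members. At Veh, 2 of these 5 differed between the labels, in opposite directions: *Cfap126*, a gene of cilia, was higher (1.32, edgeR adjusted p = 0.0195), and *Apoa2*, an apolipoprotein gene of hepatocytes, was lower (-2.88, edgeR adjusted p = 0.000255). Of all tested genes, 16.4% were called higher and 14.3% lower there, so 2 of 5 is near the background. With CC in steatotic macrophages, *Tomm40l* (-0.56, edgeR adjusted p = 0.00315) and *Sdhc* (-0.16, edgeR adjusted p = 0.0448), both of mitochondria, fell, where 10.9% of all tested genes were called lower.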

How the data were processed

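Poly(A) RNA of cultured hepatic macrophages was sequenced in 8 libraries made with a directional kit. The authors trimmed reads with fastp, aligned them to mm10 (GRCm38) with HISAT2 and quantified them with StringTie (versions and strand setting not given in the sources used here), and deposited estimated counts (expected counts), whole numbers that are not normalized, for 55401 genes, with no replicates pooled. Among counts of 1 to 20, multiples of 4 made up 35.0% to 36.5% per library, against 23.9% to 27.0% among larger counts, so counts divided by 4 served as an alternative. At these depths, 3 counts equal 0.0403 to 0.0511 CPM, which covers only the error of counting.

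Groups follow the labels. The members, gene lists and tests were chosen with earlier results of these data known. Tested were the 15202 of 28711 detected genes that reached 0.5 CPM in any 1 library, with edgeR 4.0.16 in R 4.3.3 (TMM, glmQLFit with robust estimation, glmQLFTest) in 1 model of 4 group means, with Benjamini-Hochberg adjusted p-values (all tested genes) under 0.05 called. Intervals are 95% intervals from this fit. DESeq2 1.42.0, other scalings, filters and thresholds, a replicate block and leaving out each library were alternatives. The text names the members, *Mc4r*, for each list genes past the threshold with the largest change (up to 4 for each contrast but the livers with CC) and a few set genes (*Syk*, *Inpp5d*, *Ptpn6*, *Tyrobp*, *B2m*), and the 3 genes most correlated with each member (log2 CPM, prior count 2). Genes of the chromosome 1 stretch, single marker genes and list genes beyond the first 4 were named after their values were seen. The values of 1 listed gene and the search for 1 other promoter motif are not reported here. Identifiers were matched to GENCODE M21 (55141 of 55401), and sequences were taken from it and from RefSeq. The fit was first tested on simulated counts. Figures were drawn with matplotlib 3.10.9.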

Additional observations from a re-analysis of the deposited data

Results flagged for a closer look

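The response to CC of 2 genes differed between macrophages labelled steatotic and normal by the interaction test across all genes. For *Fcgr4*, an activating IgG receptor, the steatotic minus the normal response was -0.40 on the log2 scale (edgeR adjusted p = 0.0226), and for *Fcgrt*, the neonatal Fc receptor, it was -1.10 (edgeR adjusted p = 0.0406). For both genes, each steatotic library with CC was below each steatotic library with Veh. Both calls were lost when any of 6 libraries was left out, and that of *Fcgrt* also with a replicate block (-1.09, edgeR adjusted p = 0.0770).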

How the results depend on the processing

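The fold changes of the 6 genes in the 5 comparisons were recomputed under each alternative: 550 values kept their direction and their side of the threshold, 18 passed only then, 21 passed no longer and 5 changed sign. Those that changed sign were all of the *Fcgr3* difference between the CC responses (-0.0038), at 0.016 without TMM, 0.0059 with all genes with any count and between 0.038 and 0.21 without the second normal Veh, second normal CC or first steatotic CC library (-0.23 to 0.21 over all libraries left out), and none of them passed the test. With a 2-fold change required as well, the calls among the 6 were 3, 0, 2, 3 and 1, in place of 4 between the livers at Veh, 2 with CC in normal macrophages, 4 with CC in steatotic ones, 5 between the livers with CC and 2 in the difference between the responses. Same-numbered libraries did not deviate together over all tested genes (correlations of deviations -0.0041 to 0.060). Counting error may hide a shared animal or culture, so this does not tell whether the numbers pair samples. A replicate block left 1 call in the difference, that of *Fcgr4* (-0.40), the one of *Fcgrt* being -1.09 (edgeR adjusted p = 0.0770), and changed no other call of the 6, and 400 in place of 490 genes were called in that difference. Leaving out 1 library, its partner assumed to vary like the other groups, gave 4 to 5 calls between the livers at Veh, 2 with CC in normal macrophages, 4 to 5 with CC in steatotic ones, 5 to 6 between the livers with CC and 0 to 2 in the difference. The further calls were of *Fcgr3*, or of *Fcgr2b* without the second steatotic Veh library.

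The log2 ratio of activating to inhibitory receptors changed by -0.36 in place of -0.52 between the livers at Veh without *Fcgr3*. With *Fcgr4* alone the differences were -0.089 between the livers at Veh, -0.72 and -0.73 with CC in normal and steatotic macrophages, -0.098 between the livers with CC and -0.0088 between the responses (0.26 with all 3 receptors). Leaving out 1 library gave -0.69 to -0.34 between the livers at Veh, -0.56 to -0.52 and -0.46 to -0.11 with CC in normal and steatotic macrophages, -0.30 to -0.22 between the livers with CC and 0.084 to 0.43 between the responses. The length of the longest coding transcript, an alternative chosen after seeing the data, moved none of the 5 by more than the SD between replicates.

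Over all genes, the difference between the responses had 490 calls, 737 with DESeq2, 777 at an adjusted p under 0.1, 296 without the second steatotic Veh library, and 307 and 314 without the first and second normal CC library. A 2-fold change left 1386 of 4665, 277 of 1795, 767 of 3474, 1278 of 4384 and 138 of 490 calls, in the order livers at Veh, CC in normal, CC in steatotic, livers with CC and difference. With CC in normal macrophages, 1795 genes were called, but 1014 and 1090 without the first and second normal CC library and 1071 without the first normal Veh library, and without TMM 1919 were called, 809 higher and 1110 lower in place of 953 and 842. Without TMM the balance also turned between the livers at Veh (2210 higher and 2685 lower in place of 2489 and 2176) and with CC in steatotic macrophages (1723 and 1792 in place of 1821 and 1653). The lowest count of any of the 6 genes in a library was 1082.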
